A study of Mus musculus with 12 samples.

Results

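The response to ionizing radiation was followed in murine embryonic fibroblasts (MEFs) without Pak1, a serine/threonine kinase activated by the small GTPases Rac1 and Cdc42. Arrays of irradiated Pak1 knock-out cells (KO-IR, n = 3) were set against arrays of untreated Pak1 knock-out cells (KO, n = 3), over every probe set that carries 1 gene symbol. That gave 14996 of the 16755 probe sets, standing for 14860 genes, and 6 of the 12 arrays of the study. The remaining arrays were 3 of wild-type cells (WT) and 3 of irradiated wild-type cells (WT-IR). They were used to ask where the response of the knockout cells differed. They also entered the estimate of the spread that every p-value of the joint fit rests on. All 4 groups were cells of C57Bl6J mice taken at embryonic day 13.5 and immortalized with the SV40 T antigen, and were either left untreated or irradiated with a caesium irradiator, with the controls handled in the same way. The knockout is a whole-body ablation, so KO and KO-IR cells had lacked Pak1 since the embryo. Neither the total dose nor the time between exposure and RNA isolation is given in the sources used here. How many embryos or lines stand behind each genotype is not given either, so the genotype and the line of cells cannot be told apart.

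Ionizing radiation breaks DNA, and the kinases that sense the breaks stabilize p53, a transcription factor that induces genes of cell cycle arrest, repair, metabolism and cell death together with its own inhibitors. Arrested cells then lose transcripts of G2 and mitosis, which p53 lowers indirectly through p21 and a repressor complex that binds their promoters. The large T antigen of SV40 binds p53 and the retinoblastoma protein and blunts both pathways, a setting that all 12 samples shared.

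Each value is a log2 level relative to the median of its own probe set over the 12 arrays, so that 0 is that median and levels cannot be compared between genes. A difference of 1 is a 2-fold change. The arrays had medians between -0.0201 and 0.0180, and across probe sets each array correlated with its replicates at 0.836 to 0.917 on average. All arrays were fitted together with limma, a linear model that shares variance between probe sets. Calls needed an adjusted p under 0.05 together with a change of 2-fold or more. The labels call the replicates biological but do not say whether they were separate cultures. The p-values therefore cover only the spread among these arrays, and what that spread includes is not known. Pak1 itself was not analysed here, and the knockout rests on the labels and on the study's Western blot of PAK1 protein. Because the values are centred, the presence of a cell type cannot be read from them, but changes can. Of 12 fibroblast markers 0 rose and 2 fell (16.7%), against 3.49% and 3.02% of all probe sets. Pdgfrb, a growth factor receptor, and Col1a2, a collagen chain, fell, with log2 fold changes of -0.23 (adjusted p = 0.00911) and -0.34 (adjusted p = 0.0291). In wild-type cells Pdgfrb was at -0.26 (adjusted p = 0.0106) and Col1a2 at 0.02 (adjusted p = 0.93). The fall of Col1a2 was lost when KO replicate 1 or 2, or KO-IR replicate 2 or 3, was left out, with adjusted p reaching 0.116. None of the markers of epithelium (11), endothelium (10), macrophages (11), skeletal muscle (8) or neural cells (8) passed the test.

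Irradiation of the knockout cells raised a small group of transcripts strongly and lowered none to the same extent. There were 22 probe sets called higher (0.147% of those tested) and 0 called lower (0%). At a fold change of at least 1.5 the numbers were 70 higher (0.467%) and 14 lower (0.0934%). Without a fold threshold 523 rose (3.49%) and 453 fell (3.02%), and 2891 had an unadjusted p under 0.05. The change was within 1.2-fold for 95.11% of the probe sets, their median was -0.0016, and the extremes were -0.83 and 2.48 on the log2 scale. After quantile normalization 12 of the 22 still reached 2-fold and all 22 stayed past the adjusted p. With the unpaired test of the study's methods, on the 6 arrays alone, 60 rose and 33 fell without a fold threshold, and 18 of the 22 were kept. With limma on the 6 arrays alone, 270 rose and 149 fell without a fold threshold, and all 22 were kept. The lowest call above 2-fold was Atf3 at 1.01, and the highest value short of it was Rasl11b at 0.97.

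**Figure D1:**
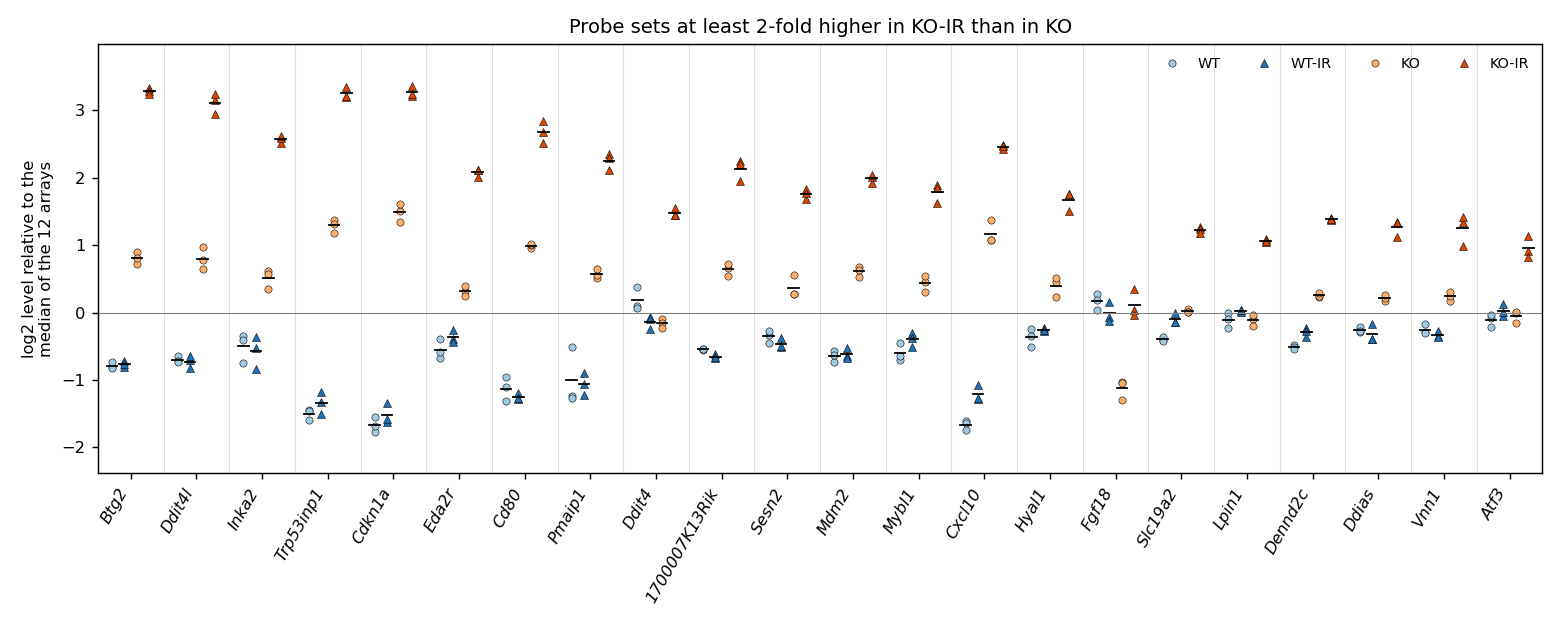
Log2 level of the 22 probe sets at least 2-fold higher in KO-IR than in KO (x axis, by size of the change), on each of the 12 arrays relative to the median of the probe set; symbols are single arrays, bars are means of 3. The KO-IR arrays lie above the KO arrays for every gene, and the WT and WT-IR arrays overlap for 16 of the 22, against 70.9% of all probe sets.

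Btg2, which encodes an antiproliferative protein that promotes mRNA deadenylation, had the largest rise. Its levels were 0.72, 0.90 and 0.81 in the KO arrays and 3.33, 3.29 and 3.24 in the KO-IR arrays. The WT arrays lay at -0.80, -0.83 and -0.73, and the WT-IR arrays at -0.81, -0.72 and -0.76. All KO-IR arrays were thus far above the others, whereas WT and WT-IR overlapped. The log2 fold change was 2.48 (standard error, SE, 0.05, with adjusted p = 2.07e-10 by limma) in the knockout cells and 0.02 (adjusted p = 0.842) in the wild-type cells.

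Cdkn1a, the gene of the p21 inhibitor of cyclin-dependent kinases, is the textbook target of p53 in arrested cells. It stood at 1.34, 1.5 and 1.62 in KO and at 3.21, 3.24 and 3.37 in KO-IR. In WT it was at -1.55, -1.77 and -1.68, and in WT-IR at -1.34, -1.62 and -1.58. The KO arrays were already above every wild-type array before irradiation, and the KO-IR arrays were above the KO arrays. The rise with irradiation was 1.79 on the log2 scale (SE 0.09, adjusted p = 3.86e-07), against 0.15 (adjusted p = 0.415) in wild-type cells.

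The same order of the 4 groups held for most of the 22. In all 22 the KO-IR arrays were entirely above the KO arrays, as they were for 9.57% of all probe sets. The KO-IR arrays exceeded all 9 other arrays for 21 of them, and for 4.49% of all probe sets. The exception was the growth factor gene Fgf18. The 22 were chosen for a rise from KO to KO-IR, so both counts follow largely from that choice and are a description. In untreated cells the KO arrays were all above the WT arrays for 18 of the 22 (81.8%), and below them for Ddit4 and Fgf18. Over all probe sets 25% had KO arrays entirely above WT arrays. The WT and WT-IR arrays overlapped for 16 of the 22 (72.7%), which is close to the 70.9% of all probe sets. The level at the start thus differed between the genotypes for most of these genes, and the part of that difference in the response was not tested.

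Fgf18 stood apart from the rest because irradiation brought the knockout cells up to the wild-type level. It was at -1.03, -1.05 and -1.29 in KO and at 0.03, -0.03 and 0.36 in KO-IR, against 0.28, 0.04 and 0.19 in WT. The KO-IR arrays overlapped the WT arrays and were all above KO. The log2 fold change was 1.24 (SE 0.11, adjusted p = 5.49e-05).

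A short stretch of promoter sequence is shown for the called genes in which a p53 response element, a pair of p53 half-sites, was found near the annotated start. The search allowed 2 mismatches over both half-sites and a spacer of up to 3 bases, required the central C and G of each half-site, and covered the RefSeq windows (GRCm38.p6) from 250 bases before to 50 bases after each start. Such an element was present for 3 of 18 genes called higher that have a window (16.7%), for 5 of 58 genes that rose at least 1.5-fold (8.62%) and for 418 of all 27025 genes with a window (1.55%). Capitals mark the 2 half-sites, read on the strand of the gene.
Cdkn1a (chr17:29090898-29090977, plus strand): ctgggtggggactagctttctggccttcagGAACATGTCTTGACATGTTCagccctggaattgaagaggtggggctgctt
Cd80 (chr16:38458792-38458871, plus strand): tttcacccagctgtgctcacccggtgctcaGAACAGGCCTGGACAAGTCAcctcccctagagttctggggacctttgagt
1700007K13Rik (chr2:28466365-28466445, minus strand): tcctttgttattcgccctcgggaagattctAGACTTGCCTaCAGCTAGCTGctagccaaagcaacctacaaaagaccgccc
The element of Cdkn1a begins 51 bases before the upstream of its 2 annotated starts, which lie 2790 bases apart, and has 1 mismatch. Those of Cd80 and 1700007K13Rik begin 111 and 91 bases before the start and have 2 mismatches each. A match of letters is not a bound site, and windows without one say nothing about p53 elsewhere in the gene.

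Genes that hold p53 in check or modify its action were among those that rose. Of 16 measured members of a list of p53 core and feedback genes, 10 rose (62.5%) and 0 fell, against 3.49% and 3.02% of all probe sets. Their median log2 fold change was 0.30, against -0.0016 over all probe sets. In wild-type cells 0 of the 16 passed the test and their median was 0.03. Trp53inp1, a cofactor of p53 in cell death and autophagy, went from 1.19, 1.38 and 1.32 in KO to 3.20, 3.35 and 3.22 in KO-IR. Its groups were widely separated, with a log2 fold change of 1.96 (SE 0.08, adjusted p = 9.47e-08).

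Mdm2, the ubiquitin ligase that targets p53 for degradation, was the other called gene of that list. Its levels were 0.68, 0.53 and 0.63 in KO and 1.92, 2.02 and 2.04 in KO-IR, while WT and WT-IR overlapped between -0.73 and -0.53. The log2 fold change was 1.38 (SE 0.06, adjusted p = 1.04e-07) in knockout and 0.03 (adjusted p = 0.853) in wild-type cells. Its relative Mdm4 rose by 0.33, and Ppm1d, the Wip1 phosphatase that switches off damage signaling, by 0.70. Smaller increases were seen for Aen, a nuclease of apoptosis (0.57), Ccng1, a cyclin that feeds back on Mdm2 (0.40), Pml, the organizer of nuclear bodies (0.35), and Trp53bp2, the ASPP2 cofactor (0.34).

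Among 26 targets of arrest and repair, 13 rose (50%) and 2 fell (7.69%), at a median of 0.19, against 3.49% and 3.02% of all probe sets. Those that rose in step with Btg2 and Cdkn1a included regulators of growth. Ddit4, an inhibitor of the growth kinase complex mTORC1, was at -0.09, -0.15 and -0.23 in KO and at 1.56, 1.44 and 1.44 in KO-IR, a log2 fold change of 1.64 (SE 0.08, adjusted p = 2.80e-07). In wild-type cells its value went the other way, at -0.32, and did not pass the test (adjusted p = 0.0559). Sesn2, a leucine-sensing inhibitor of the same complex, rose by 1.40 (SE 0.08, adjusted p = 1.10e-06), from 0.27, 0.55 and 0.27 in KO to 1.68, 1.84 and 1.77 in KO-IR. Ddit4l, a close relative of Ddit4 with the same function and a member of the list of other p53 targets, rose by 2.32 (SE 0.09, adjusted p = 5.08e-08), from 0.77, 0.65 and 0.97 to 2.95, 3.15 and 3.24. In all 3 of these genes the KO and KO-IR arrays were separated by more than the spread within either group.

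Some repair genes rose. Polk, a translesion DNA polymerase, rose by 0.97, just short of 2-fold, and Ercc5, a nuclease of nucleotide excision repair, by 0.67. Fbxw7, the substrate receptor of a ubiquitin ligase, rose by 0.75, Phlda3, an inhibitor of Akt, by 0.87 and Zmat3, an RNA-binding zinc finger protein, by 0.58. The transcription factor Mybl1 rose by 1.35. Polh, another translesion polymerase, instead fell by 0.38 (adjusted p = 0.0155), a fall that was lost without KO replicate 1 or KO-IR replicate 2 or 3, with adjusted p up to 0.0692. Not every classical target responded: Gadd45a was at 0.17 (adjusted p = 0.158), Ddb2 at -0.01 (adjusted p = 0.968) and Xpc at -0.04 (adjusted p = 0.865).

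Among p53 targets of cell death, 9 of 21 members rose (42.9%), 0 fell and 12 did not pass the test, with a median of 0.23. Of all probe sets 3.49% rose and 3.02% fell. Eda2r, a receptor of the tumor necrosis factor family that binds ectodysplasin A2, was at 0.32, 0.25 and 0.39 in KO and at 2.01, 2.12 and 2.11 in KO-IR, with no overlap (log2 fold change 1.76, SE 0.07, adjusted p = 9.47e-08). Pmaip1, the BH3-only protein Noxa that opposes survival proteins of the Bcl2 family, was at 0.51, 0.55 and 0.65 in KO and at 2.35, 2.29 and 2.12 in KO-IR. Its log2 fold change was 1.68 (SE 0.17, adjusted p = 0.000114), and its wild-type arrays were the most scattered of the 22 genes, from -1.27 to -0.51. The death receptors Fas (0.96) and Tnfrsf10b (0.53), the adaptor Pidd1 (0.92) and the apoptosome scaffold Apaf1 (0.53) rose as well, and so did the BH3-only gene Bcl2l11 (0.45). Bbc3, the gene of the BH3-only protein Puma, was at 0.23 with an adjusted p of 0.0565, and Perp, a membrane protein of desmosomes, at 0.32 with an adjusted p of 0.0531.

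Among 41 probe sets of other p53 targets, 20 rose (48.8%) and 0 fell, against 3.49% and 3.02% of all probe sets. Their median was 0.20. Cd80, the costimulatory ligand of T cells, rose by 1.68 (SE 0.09, adjusted p = 6.44e-07) and Slc19a2, a thiamine transporter, by 1.21 (SE 0.05, adjusted p = 5.08e-08). Pltp, the phospholipid transfer protein (0.82), Zfp365, a zinc finger protein (0.80), and Anxa8, an annexin (0.67), followed. Tap1, the peptide transporter of antigen presentation (0.61), Dgka, a diacylglycerol kinase (0.56), Notch1, the receptor (0.45), Abhd4, a lipase of the alpha/beta hydrolase family (0.40), and Lif, a cytokine of the interleukin 6 family (0.38), showed smaller rises. Over the 4 lists of p53 genes together, 52 of 104 probe sets rose (50%) and 2 fell (1.9%), at a median of 0.22. In wild-type cells 1 rose and 7 fell, at a median of -0.05, where 0.86% and 1.71% of all probe sets did. The 52 became 24 with the unpaired test of the study's methods and 44 with the 6 knockout arrays alone. These lists hold genes that had been reported from these samples, so their direction is not independent evidence.

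**Figure D2:**
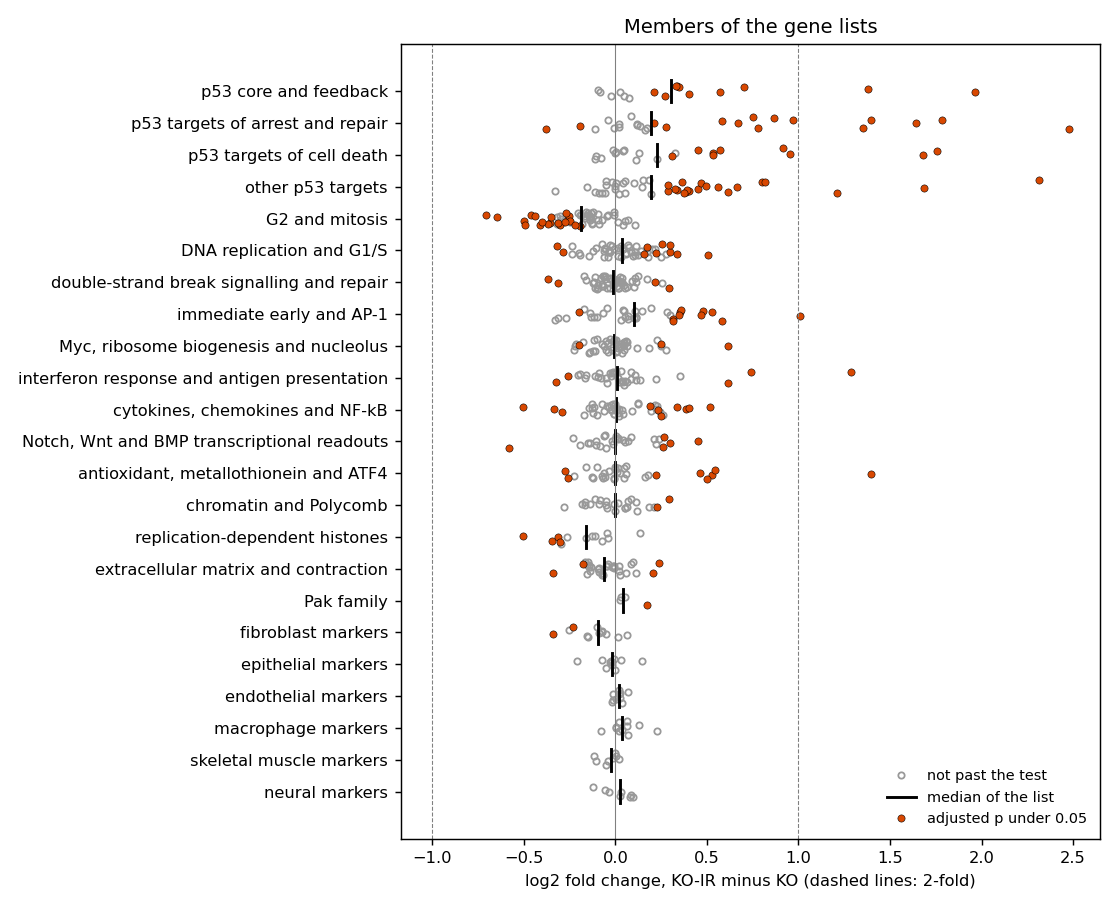
Log2 fold change of KO-IR over KO (x axis) for each member of the gene lists (y axis); filled points passed an adjusted p of 0.05, open points did not, and black bars are list medians. The 4 p53 lists reach to the right with medians of 0.19 to 0.30, G2 and mitosis genes lie to the left with a median of -0.19, and the marker lists of other cell types hold open points only.

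The called genes outside the p53 lists numbered 10. Inka2, whose product binds and inhibits the kinase PAK4, had the third largest rise of all. Its levels were 0.61, 0.57 and 0.34 in KO, 2.52, 2.60 and 2.62 in KO-IR, -0.75, -0.34 and -0.40 in WT, and -0.83, -0.37 and -0.53 in WT-IR. Only the KO-IR arrays stood above 0.61, and the log2 fold change was 2.07 (SE 0.12, adjusted p = 2.01e-06). Of the p21-activated kinases themselves, Pak2 rose by 0.17 (adjusted p = 0.0142), and Pak3, Pak4 and Pak7 were at 0.05, 0.03 and 0.03. The rise of Pak2 was lost without KO replicate 1 or 2 or KO-IR replicate 3, with adjusted p up to 0.0622.

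Ddias, which encodes a protein that protects damaged cells from apoptosis, rose by 1.05. Hyal1, a lysosomal hyaluronidase, rose by 1.28, Lpin1, a phosphatidate phosphatase of lipid synthesis, by 1.18, and Vnn1, a pantetheinase, by 1.01. Dennd2c, an exchange factor for Rab GTPases, rose by 1.13, from 0.23, 0.24 and 0.29 in KO to 1.41, 1.37 and 1.39 in KO-IR, with the smallest SD over the KO-IR arrays among the 22 genes (0.019). For 1700007K13Rik, a gene without a given name, the rise was 2.82-fold.

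Cxcl10, an interferon-induced chemokine that attracts T cells, was one of 3 called genes that also rose in wild-type cells, beside Slc19a2 and Dennd2c. It stood at 1.07, 1.07 and 1.37 in KO and at 2.43, 2.48 and 2.47 in KO-IR, and at -1.61, -1.64 and -1.75 in WT and -1.07, -1.28 and -1.27 in WT-IR. Irradiated arrays were above untreated ones in both genotypes. The log2 fold change was 1.29 (adjusted p = 3.20e-06) in knockout and 0.46 (adjusted p = 0.0139) in wild-type cells, with a difference of 0.83 (adjusted p = 0.00333). Of 36 genes of the interferon response and antigen presentation 3 rose (8.33%) and 2 fell (5.56%), with a median of 0.008. The shares of all probe sets were 3.49% and 3.02%.

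Whether the response differed from that of wild-type cells was tested as the interaction, which subtracts the wild-type change (WT-IR over WT) from the knockout change (KO-IR over KO). It was past an adjusted p of 0.05 and positive for 185 probe sets (1.23%) and negative for 32 (0.213%). All 22 called genes had a positive interaction, and so did 168 of the 523 that rose (32.12%). The 523 were chosen by their change in knockout cells, which raises their change there and their interaction, so these counts and the medians of 0.31 in knockout and 0.05 in wild-type cells are a description. Of the 523, 40 also rose in wild-type cells, which is 7.65% of them and 31.0% of the 129 that rose there (0.86% of those tested). Of the 104 probe sets of p53 genes, 43 had a positive interaction and 0 a negative one.

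**Figure D3:**
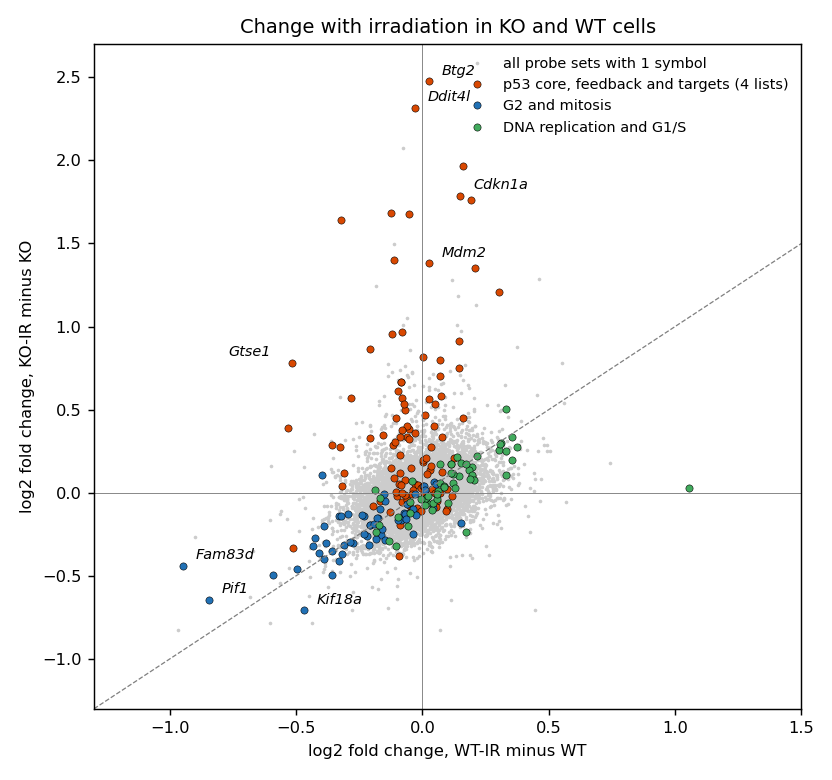
Log2 fold change with irradiation in KO cells (y axis) against that in WT cells (x axis) for all probe sets with 1 symbol, with 3 groups of lists in colour; the dashed line marks equal change. Many genes of the p53 lists lie well above 0 on the y axis while close to 0 on the x axis, while G2 and mitosis genes lie near the dashed line.

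In 11 of the 523 the wild-type cells moved the opposite way, past the test in both genotypes. Gtse1, a G2 and S phase protein that restrains p53, was the clearest. It was at 0.25, 0.32 and 0.28 in KO and at 1.03, 1.08 and 1.07 in KO-IR, but at -0.29, -0.34 and -0.25 in WT and at -0.73, -0.85 and -0.87 in WT-IR. The groups did not overlap in either genotype, with log2 fold changes of 0.78 (adjusted p = 1.09e-06) and -0.52 (adjusted p = 0.000168) and an interaction of 1.30 (adjusted p = 1.41e-06). Phlda3 (0.87 and -0.21), Jun (0.35 and -0.43) and Ccng2, an atypical cyclin of quiescent cells (0.27 and -0.33), showed the same crossing, as did Rap2b, a Ras-related GTPase (0.39 and -0.53), and Ckap2, a spindle protein (0.29 and -0.36). The rise of Rap2b was lost without KO replicate 1 or 3 or KO-IR replicate 2 (adjusted p up to 0.0948), and that of Ckap2 without KO replicate 1 or 2 or KO-IR replicate 2 or 3 (adjusted p up to 0.0877).

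Immediate early genes, which respond to stress and growth signals within minutes, rose in part in the knockout cells. Of 35 members 10 rose (28.6%), 1 fell (2.86%) and 24 did not pass the test, with a median of 0.10. Over all probe sets 3.49% rose and 3.02% fell. In wild-type cells 0 of the members rose and 5 fell, with a median of -0.06, where 0.86% and 1.71% of all probe sets did. The 10 became 0 with the unpaired test of the methods and 7 with the 6 knockout arrays alone. Atf3, a stress-induced transcription factor, was the only one to reach 2-fold: it was at -0.15, -0.01 and 0.01 in KO and at 1.13, 0.91 and 0.83 in KO-IR (log2 fold change 1.01, SE 0.08, adjusted p = 1.90e-05). Without KO replicate 1 or KO-IR replicate 1 it fell short of 2-fold but remained past the adjusted p.

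Jun, a subunit of the AP-1 transcription factor, was at 0.30, 0.39 and 0.47 in KO and at 0.65, 0.85 and 0.73 in KO-IR. In wild-type cells it went from -0.30, -0.43 and -0.34 down to -0.77, -0.81 and -0.78. The arrays of irradiated and untreated cells were thus separated in both genotypes and in opposite directions, with an interaction of 0.78 (adjusted p = 0.000478). Junb (0.47) and Fosl1 (0.36), 2 further AP-1 subunits, Dusp1, a phosphatase of MAP kinases (0.58), Nr4a1, an orphan nuclear receptor (0.48), and Gem, a small GTPase (0.53), rose as well. Fos (0.28, adjusted p = 0.117) and Egr1 (-0.07, adjusted p = 0.639), which define the immediate early response in many cells, did not pass the test. Myc fell by 0.20 (adjusted p = 0.0353), a fall that was lost without any 1 of 10 of the 12 arrays (adjusted p up to 0.116). Its antagonist Mxd1 rose by 0.62 (adjusted p = 1.96e-05), with 0.03 in wild-type cells.

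**Figure D4:**
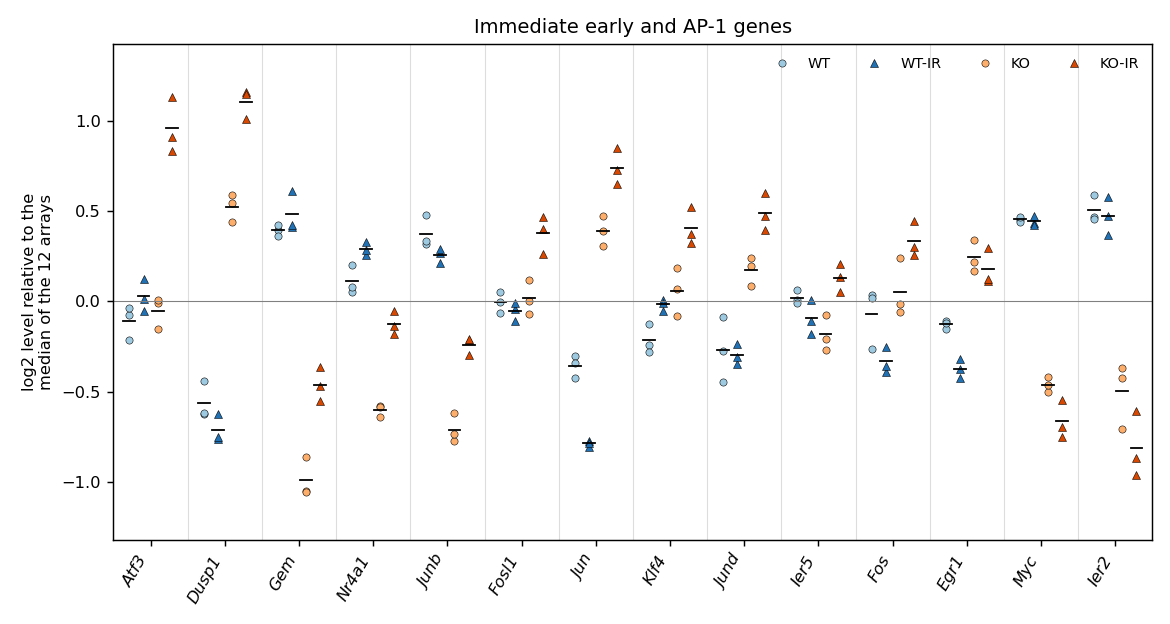
Log2 level on each of the 12 arrays, relative to the median of the probe set, for the 11 immediate early and AP-1 genes past an adjusted p of 0.05 in KO-IR against KO and for Fos, Egr1 and Ier2, which were not; bars are means of 3. Jun is higher in KO-IR than in KO and lower in WT-IR than in WT.

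The falls were smaller, and a part of them was shared with the wild-type cells. Of the 453 that fell, 101 also fell in WT-IR, which is 22.3% of them and 39.5% of the 256 that fell there (1.71% of those tested), and 21 had a negative interaction (4.64%). Their median change was -0.26 in knockout cells, by which they were chosen, and -0.14 in wild-type cells. Of 56 probe sets of G2 and mitosis genes, 20 fell in knockout cells (35.7%) and 0 rose, with a median of -0.19. The share of all probe sets that fell was 3.02%. In wild-type cells 22 of the 56 fell and 0 rose, with a median of -0.21, and 15 of the 20 fell there too. None of the 56 had a negative interaction, and 2 had a positive one. The 20 became 4 with the unpaired test of the methods and 14 with the 6 knockout arrays alone.

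Kif18a, a kinesin that aligns chromosomes at the spindle, had the largest fall of the list. It was at -0.10, -0.16 and 0.04 in KO and at -0.71, -0.72 and -0.91 in KO-IR, a log2 fold change of -0.71 (SE 0.07, adjusted p = 0.000103). In wild-type cells it fell by 0.47 (adjusted p = 0.00658). The arrays of irradiated cells were below those of untreated cells in each genotype, and the difference between the genotypes did not pass the test (adjusted p = 0.386).

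Aurka, the kinase of centrosome maturation, was at 0.09, 0.12 and 0.17 in KO and at -0.42, -0.40 and -0.29 in KO-IR, and at 0.54, 0.41 and 0.48 in WT and -0.11, -0.09 and -0.16 in WT-IR. The groups did not overlap in either genotype, with log2 fold changes of -0.50 (adjusted p = 7.77e-05) and -0.59 (adjusted p = 0.000124). Bora, the activator of Aurka, fell by 0.49 and 0.36 in knockout and wild-type cells. Pif1, a DNA helicase, fell by 0.65 and 0.85. The cohesin protectors Sgo1 (0.41 and 0.33) and Sgo2a (0.36 and 0.41) and the kinetochore protein Knstrn (0.37 and 0.32) fell by similar amounts in both.

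Plk1, a kinase of mitotic entry, is covered by 2 probe sets that disagreed. One fell by 0.46 (adjusted p = 0.000166) and the other was at -0.10 (adjusted p = 0.174). Fam83d, a spindle protein, fell less in knockout than in wild-type cells, with -0.44 against -0.95 and an interaction of 0.51 (adjusted p = 0.0132). Cdk1 (-0.17, adjusted p = 0.0506) and Top2a (-0.18, adjusted p = 0.293) did not pass the test. Histone genes, whose transcripts are made mainly in S phase, included 4 falls (30.8%) and 0 rises among 13 measured, with a median of -0.16. Over all probe sets 3.02% fell. In wild-type cells 3 of the 13 fell and 0 rose, with a median of -0.26, where 1.71% of all probe sets fell. H1f5, a linker histone, fell by 0.50 and H2aw, a core histone, by 0.35. In wild-type cells H1f5 was at -0.29 (adjusted p = 0.081) and H2aw at -0.37 (adjusted p = 0.0106).

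**Figure D5:**
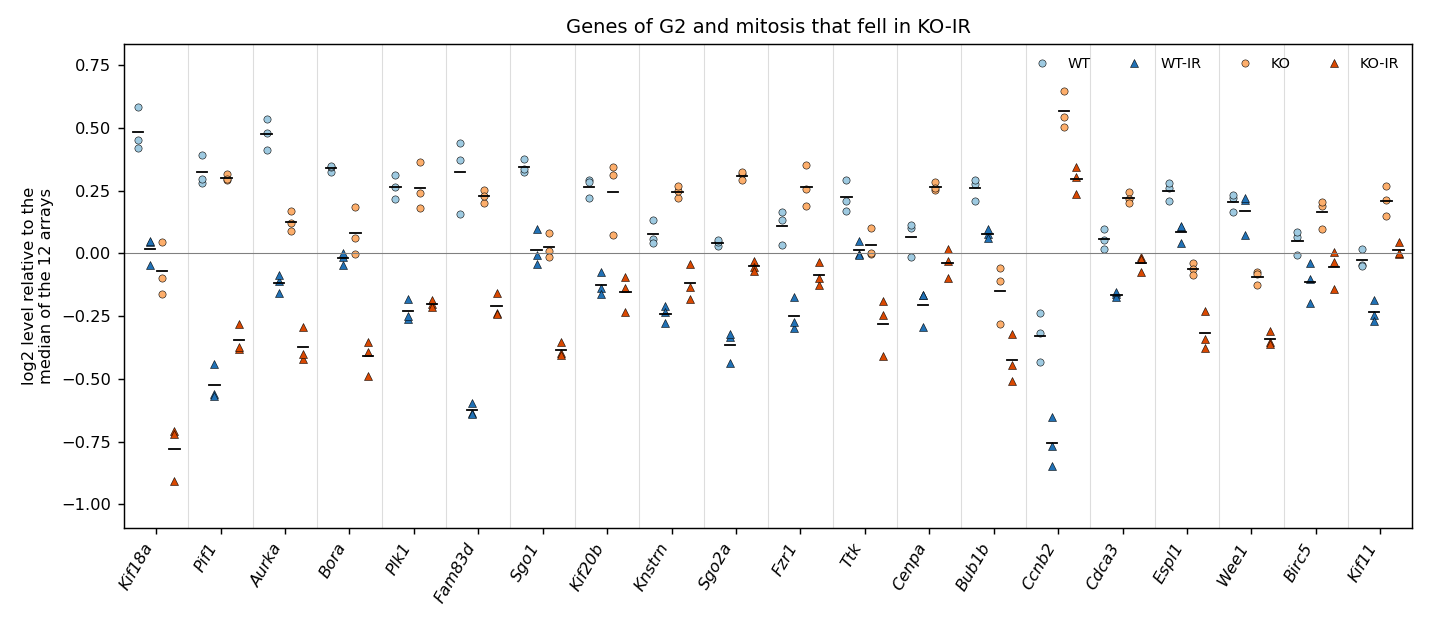
Log2 level on each of the 12 arrays, relative to the median of the probe set, for the 20 G2 and mitosis genes that fell in KO-IR against KO, ordered by the size of the fall; bars are means of 3. In most genes the arrays of irradiated cells (triangles) lie below those of untreated cells (circles) in both genotypes.

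Promoters of mitotic genes often carry the cell cycle genes homology region, a short element with the letters TTTGAA through which they are repressed outside G2 and mitosis. The same RefSeq windows were searched for these letters on either strand. They were present for 11 of the 17 genes that fell and have a window (64.7%), and for 5466 of all 27025 genes (20.2%). Members of the list that did not pass the test held them for 19 of 28 (67.9%), so a match does not set apart the genes that fell. The short stretches below show the letters in capitals, TTTGAA or its reverse complement TTCAAA, for some of the 11 genes. Matches of Ttk, Kif20b, Cenpa, Cdca3 and Bub1b lie at similar distances from the annotated start and are not shown.
Fam83d (chr2:158768039-158768064, plus strand): gctggtttgaTTCAAAgatgcctata
Espl1 (chr15:102296256-102296281, plus strand): actagggataTTTGAAaggaggtgct
Kif11 (chr19:37376353-37376378, plus strand): gtctccatttTTCAAAattgaggcgc
Ccnb2 (chr9:70421535-70421560, minus strand): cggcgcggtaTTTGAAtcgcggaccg
Plk1 (chr7:122159455-122159480, plus strand): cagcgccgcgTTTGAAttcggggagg
Aurka (chr2:172370523-172370548, minus strand): aaggagaaccTTTGAAttgtaacggc

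Genes of DNA replication and the G1/S transition did not fall with those of mitosis. Of 54 members 8 rose (14.8%) and 2 fell (3.7%), against 3.49% and 3.02% of all probe sets, with a median of 0.04. In wild-type cells 9 rose and 0 fell, with a median of 0.09, where 0.86% and 1.71% of all probe sets did. Cdc6, a licensing factor of replication origins, rose by 0.34 in knockout and 0.36 in wild-type cells, from -0.32, -0.35 and -0.30 in KO to -0.03, 0.04 and 0.02 in KO-IR. Mcm10, a factor of origin firing, rose by 0.30 and 0.31. Their interactions were -0.02 (adjusted p = 0.953) and -0.01 (adjusted p = 0.957). Ccnd3, a D-type cyclin, fell by 0.32 in the knockout cells (adjusted p = 0.00708). Among 49 genes of double-strand break signaling and repair 2 rose (4.08%) and 2 fell (4.08%), with a median of -0.01. These shares were near those of all probe sets. Rad9a rose by 0.30 and Rad1 fell by 0.37, although both encode subunits of the same checkpoint clamp.

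Of the 14 falls of at least 1.5-fold, Kif18a and Pif1 belong to the mitotic list, and the other genes named here were chosen after their values were seen, unless their interaction was among the largest. Hyls1, a protein of centrioles, fell by 0.79 in knockout and 0.60 in wild-type cells. Styk1, a kinase-like membrane protein, fell by 0.78 and 0.44, and Spry2, a feedback inhibitor of receptor tyrosine kinases, by 0.62 and 0.45. These 3 genes passed the test in both genotypes.

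Other falls were steeper in the knockout cells by the test of the interaction. Kcnj2, an inward rectifier potassium channel, had the largest fall of all, from 1.01, 0.95 and 1.08 in KO to 0.30, 0.03 and 0.23 in KO-IR. In WT it was at -0.09, -0.28 and -0.31 and in WT-IR at -0.14, -0.30 and -0.03. Irradiation thus brought its raised level part of the way down, with a log2 fold change of -0.83 (SE 0.09, adjusted p = 0.000177) and an interaction of -0.90 (adjusted p = 0.00294). Rgs4, a regulator of G protein signaling, behaved alike: it was at 1.19, 1.17 and 1.40 in KO and at 0.69, 0.65 and 0.49 in KO-IR, and between -0.77 and -0.49 in the 6 wild-type arrays (interaction -0.76, adjusted p = 0.00697).

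Pcdh18, a protocadherin of cell adhesion, was at 0.12, 0.16 and 0.12 in KO and at -0.51, -0.57 and -0.61 in KO-IR, a log2 fold change of -0.69 (SE 0.04, adjusted p = 8.00e-07), with an interaction of -0.56 (adjusted p = 0.000246). Edn1, the vasoconstrictor peptide endothelin, fell by 0.64 (interaction -0.54, adjusted p = 0.0123) and Cxcl5, a chemokine of neutrophils, by 0.51 (interaction -0.49, adjusted p = 0.00197). Polr2h, a subunit shared by the RNA polymerases, had 2 probe sets at -0.70 and 0.09. The first passed the test (adjusted p = 0.0188, or up to 0.0795 without KO replicate 1 or KO-IR replicate 3) and the second did not (adjusted p = 0.832), so no direction is given for the gene. Lfng, a glycosyltransferase that modifies Notch receptors, fell by 0.71, and Id3, an inhibitor of basic helix-loop-helix factors, by 0.58, while Notch1 and Notch3 rose by 0.45 and 0.26.

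A few stress genes rose in both genotypes. Slc7a11, the cystine transporter that feeds glutathione synthesis, was at -0.72, -0.92 and -0.71 in KO and at -0.29, -0.16 and -0.28 in KO-IR, and at 0.16, 0.18 and 0.16 in WT and 0.60, 0.78 and 0.80 in WT-IR. The irradiated arrays were above the untreated ones in each genotype, with log2 fold changes of 0.54 (adjusted p = 0.000518) and 0.56 (adjusted p = 0.00193). Hmox1, heme oxygenase, rose by 0.53 and 0.30, and Gclc, the rate-limiting enzyme of glutathione synthesis, rose by 0.50 in knockout cells and was at 0.21 (adjusted p = 0.133) in wild-type cells. Of 31 genes of the antioxidant, metallothionein and ATF4 list, 6 rose (19.4%) and 2 fell (6.45%) in the knockout cells, with a median of -0.001. The shares of all probe sets were 3.49% and 3.02%. In the wild-type cells 3 of the list rose and 0 fell, where 0.86% and 1.71% of all probe sets did.

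Cytokine genes moved in both directions. Of 44 cytokine, chemokine and NF-kB genes 7 rose (15.9%) and 3 fell (6.82%), against 3.49% and 3.02% of all probe sets, with a median of 0.004. Nfkbia, the inhibitor that NF-kB induces against itself, rose by 0.34, Hbegf, a ligand of the epidermal growth factor receptor, fell by 0.33, and Cxcl12, a chemokine of stromal cells, fell by 0.29. Of 32 genes of extracellular matrix and contraction 2 rose (6.25%) and 2 fell (6.25%), with a median of -0.06. Of 45 genes of Myc, ribosome biogenesis and the nucleolus 2 rose (4.44%) and 1 fell (2.22%), with a median of -0.006. Metabolic regulators were among the single genes with larger rises, such as Txnip, an inhibitor of thioredoxin and glucose uptake (0.62), and Pdk4, a kinase that shuts pyruvate out of the citric acid cycle (0.65). Pim1, a survival kinase, rose by 0.58, Fst, which binds activin, by 0.71, and Socs2, a suppressor of cytokine signaling, by 0.78.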

How the data were processed

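RNA of 12 samples was hybridised to Affymetrix Mouse Exon 1.0 ST arrays. The authors deposited log2 values normalized in Gene Spring GX, centred on the median of each probe set, so signal over background is unknown, and filters on dim probes, another background correction and the slide as a block were not possible. Symbols came from the platform annotation, updated through RefSeq (14969 of 14996 matched); 1019 probe sets with several symbols and 740 with none were fitted but not described.

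Values of 16755 probe sets were fitted with limma 3.58.1 in R 4.3.3 (lmFit, eBayes, 4 group means, 8 residual degrees of freedom), with Benjamini-Hochberg adjustment over all probe sets. On simulated data of this size, 98.5% of 1.5-fold and 100% of 2-fold changes passed in KO-IR vs KO, beside 11 unchanged probe sets. For the interaction 94% and 100% passed, beside 12. The simulation drew independent noise for each value, with no deviation shared within an array, and counted the adjusted p alone. Recovery in the real arrays may therefore be lower. Alternatives were the unpaired t-test of the methods, only the KO and KO-IR arrays, a replicate block, quantile normalization, median centring, other fold thresholds, robust eBayes, 1-symbol probe sets and omission of each array. Counts within lists under these settings were added after seeing the data.

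Named genes were the called probe sets without overlap between groups, the 6 of each list with the smallest adjusted p, the 10 largest interactions each way, genes that the study tabulates for irradiated cells and the Pak family. Others, such as smaller rises of the lists, the falls, Txnip, Pdk4, Fst and Socs2, were chosen after their values were seen. Members and lists were chosen with earlier results of these data known.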

Additional observations from a re-analysis of the deposited data

Results flagged for a closer look

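The change with irradiation was compared between knockout and wild-type cells by the test of the interaction in limma, at an adjusted p under 0.05. It differed for 65 of the 120 probe sets of genes named above, 59 of them with a larger value in the knockout cells. Over all probe sets the interaction was positive for 1.23% and negative for 0.213%. Many of the genes were named for their change in knockout cells or for a large interaction. The 65 and 59 follow largely from that choice and are a description. Each value in parentheses is the difference of the 2 log2 fold changes, and the adjusted p-values reached 0.04597 (Fosl1). Among regulators of p53 it was past the threshold for Trp53inp1 (1.80), Mdm2 (1.35), Aen (0.65), Ppm1d (0.64), Pml (0.50) and Mdm4 (0.42). Among targets of arrest and repair these were Btg2 (2.45), Ddit4 (1.97), Cdkn1a (1.64), Sesn2 (1.51), Gtse1 (1.30), Mybl1 (1.15), Phlda3 (1.07), Polk (1.05), Ercc5 (0.75), Fbxw7 (0.61), Ccng2 (0.60) and Zmat3 (0.51). Cell death targets with a larger change were Pmaip1 (1.73), Eda2r (1.57), Fas (1.08), Pidd1 (0.77) and Apaf1 (0.48). The other p53 targets were Ddit4l (2.34), Cd80 (1.81), Rap2b (0.92), Slc19a2 (0.91), Pltp (0.81), Anxa8 (0.75), Zfp365 (0.73), Tap1 (0.71), Ckap2 (0.64), Notch1 (0.56), Dgka (0.54), Abhd4 (0.47) and Lif (0.43). Outside the p53 lists, the called genes Inka2 (2.15), 1700007K13Rik (1.61), Fgf18 (1.43), Hyal1 (1.16), Ddias (1.11), Vnn1 (1.09), Lpin1 (1.04), Dennd2c (0.92), Atf3 (0.87) and Cxcl10 (0.83) stood beside the immediate early genes Jun (0.78), Dusp1 (0.73), Junb (0.59) and Fosl1 (0.41). Single genes of other functions were Pim1 (0.90), Rasl11b (0.82), Fst (0.77), Mxd1 (0.59), Txnip (0.57), Nfkbia (0.50), Pdk4 (0.47) and Notch3 (0.36). Fam83d had a positive value (0.51) because it fell less in knockout than in wild-type cells.

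The value was negative for 6, Cxcl5 (-0.49), Edn1 (-0.54), Pcdh18 (-0.56), Rgs4 (-0.76), Kcnj2 (-0.90) and Polr2h (-1.15). For Polr2h the second probe set gave 0.16 (adjusted p = 0.835), so the 2 probe sets disagree.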

How the results depend on the processing

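No called gene changed direction in any setting. The 22 called rises became 18 with the methods' t-test, 12 after quantile normalization, 70 at 1.5-fold and 523 with no fold threshold, and 20 to 23 without 1 array. Quantile normalization kept all 22 past the adjusted p, and the 10 lost (such as Mdm2, Mybl1, Slc19a2 and Lpin1) fell short of 2-fold. Without KO replicate 1, Atf3 and Vnn1 fell short of it. The 0 called falls became 14 at 1.5-fold and 453 with no threshold, and stayed 0 without any 1 array. The 523 rises and 453 falls without a fold threshold became 60 and 33 with the t-test, 270 and 149 with the KO and KO-IR arrays alone, and 310 to 780 and 220 to 629 without 1 array. The 185 positive interactions became 73 at 1.5-fold and 110 to 205 without 1 array, and the 32 negative ones 50 after quantile normalization, 6 at 1.5-fold and 13 to 42 without 1 array. Within lists, the rises of p53 genes (52) became 24, the falls of G2 and mitosis genes (20) became 4 and the rises of immediate early genes (10) became 0 with the t-test, and ranged over 46 to 53, 17 to 22 and 7 to 11 without 1 array. The 120 probe sets of genes named in the text include some that did not pass the adjusted p in the main fit. Of the 120, 63 passed it there but not with the t-test, Jun, Aurka, Kif18a, Kcnj2, Fas and Slc7a11 among them. With the 6 arrays alone 15 lost it: Socs2, Tnfrsf10b, Myc, Espl1, Pak2, Ccnd3, Notch3, Pdgfrb, Hbegf, Kif11, Rap2b, Col1a2, Cxcl12, Ckap2 and Ccnb2.

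The replicate block left 22 called rises, 474 and 382 rises and falls, 160 positive interactions and 21 negative ones. Deviations of same-numbered KO and KO-IR arrays correlated at 0.07, -0.04 and 0.006, and those of differently numbered arrays at -0.06 to 0.05. These values cannot show whether the numbers pair the samples, since each group holds only 3 arrays. The t-test gives no interaction and was not run for it. With 3 arrays per group, the number of arrays limits the precision.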
